A study of Mus musculus with 8 samples.

Results

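A set of 6 genes was followed in mouse liver after a pulse of growth hormone (GH): the 3 Pim kinase genes Pim1, Pim2 and Pim3, the anti-apoptotic genes Mcl1 and Bcl2l1, and the cyclin D gene Ccnd1. They were chosen by name, as Pim kinases and as survival and cyclin genes known to be STAT5 targets, and the rule uses no measured value, although earlier results of these data were known when the genes were chosen. All 6 members were found among the 24197 genes of the deposited table, and all 6 had enough exonic and intronic reads to be tested. GH binds its receptor on hepatocytes and activates the kinase JAK2, which phosphorylates the transcription factor STAT5b. In blood cells, cytokines that signal through STAT5 raise PIM1, MCL1, BCL-XL (encoded by Bcl2l1) and cyclin D1. PIM kinases are active as soon as they are made, so their amount is set mainly by transcription, messenger stability and protein turnover. They phosphorylate the cell death protein BAD and the cell cycle inhibitor p27, among others.

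The mice were males of the outbred CD-1 strain whose pituitary, the source of circulating GH, had been removed by the supplier at 7 weeks of age, and they were 11 weeks old. The 4 groups were Hypox, the hypophysectomized mice without GH, and hypophysectomized mice 30, 90 or 240 min after a single intraperitoneal injection of recombinant rat GH at 125 ng per g body weight. The labels describe the Hypox mice as untreated in one place and as given vehicle in another, and all times share this 1 control group, so that an effect of time of day or handling cannot be told apart from one of GH. Each group had 2 libraries of total liver RNA with ribosomal RNA partly depleted, each library from a pool of 4 animals, so that the spread given here is the spread between pools.

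Libraries had 15935303 to 34452570 mapped reads, recovered with the reads of each gene from the group means the authors deposited. Which library was pool 1 or pool 2 is not known, and the 2 of a group are called the deeper and the shallower. Levels are given as CPM, the reads of a gene over the mapped reads of its library after scaling, or, between genes, as FPKM, which also divides by the gene's exonic length. Exonic reads come mostly from finished messenger RNA and intronic reads mostly from unspliced transcripts. Groups of 2 libraries often do not overlap. In exonic reads this held for 41.4% of the genes tested at 90 min against Hypox and 56% at 240 min. No such share is given for the other comparisons or for intronic reads, so non-overlap of a single gene says little. The 10 hepatocyte markers summed to 25300 to 32900 CPM in the 8 libraries, which fits the tissue label. The shallower 30 min library stood apart in the ribosomal precursor Rn45s, with 19500 CPM against 6300 to 11900 CPM in the other 7 libraries. In bulk liver RNA, fewer cells of a type and less RNA per cell cannot be told apart.

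Per kilobase of exon, Mcl1 was the highest of the 6 genes in Hypox livers at 15.2 ± 0.849 FPKM (SD, n = 2, as for every level below). Pim3 followed at 7.64 ± 0.813 FPKM, Pim1 at 5.08 ± 0.834 FPKM, Bcl2l1 at 2.22 ± 0.431 FPKM, Ccnd1 at 1.62 ± 0.0566 FPKM and Pim2 at 0.85 ± 0.112 FPKM. No neighbours in this order overlapped between libraries in Hypox livers. The order was not kept through the time course. At 90 min Pim3 led with 18.2 ± 0.212 FPKM, above Mcl1 at 15 ± 0.919 FPKM. At 240 min Ccnd1 stood above Pim1, with 2.46 ± 0.396 FPKM against 1.73 ± 0.396 FPKM. Libraries of Pim1 and Bcl2l1 overlapped at 30 min and at 240 min, and those of Bcl2l1 and Ccnd1 at 90 min. The authors' gene model of Pim1 has 1753 exonic bases, and its longest coding transcript in GENCODE M21 has 2698, so the FPKM level of Pim1 depends on the model, while its changes between groups do not use the length.

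**Figure D1:**
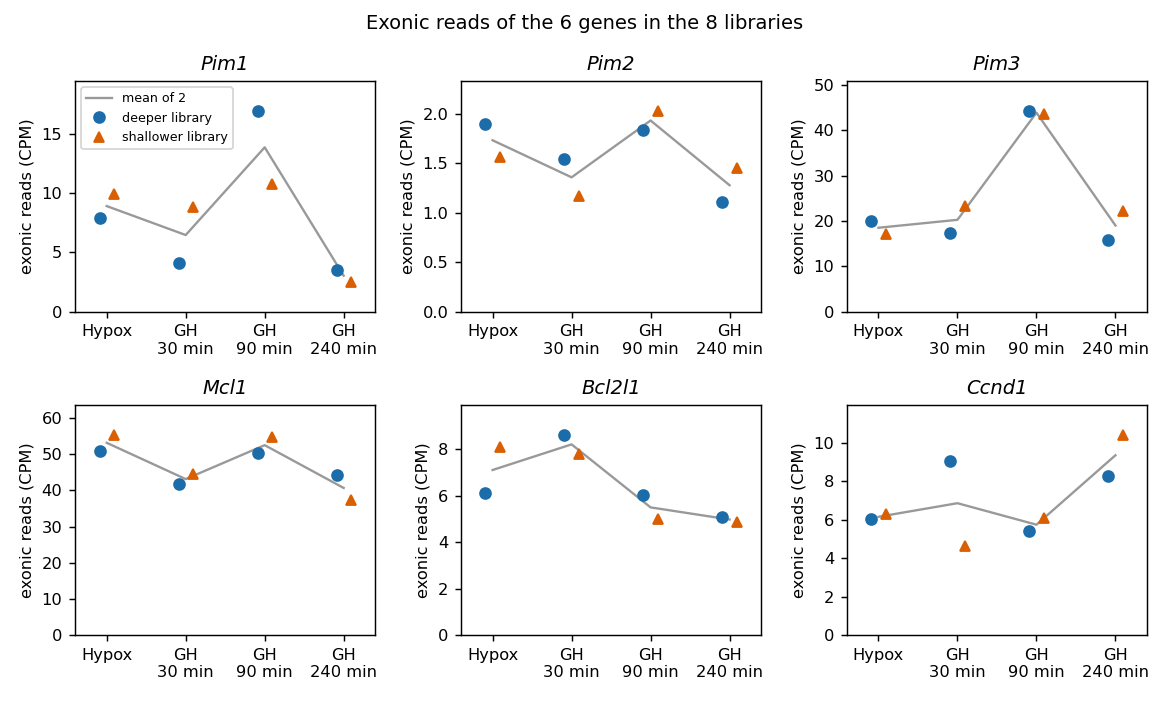
Exonic reads of each gene in CPM (y axes, linear, from 0) in the 4 groups (x axes), with a circle for the deeper and a triangle for the shallower library and a line through the mean of 2. Pim3 was at 44.2 and 43.5 CPM at 90 min with no other library above 23.2 CPM, and the 2 lowest Pim1 values, 3.53 and 2.54 CPM, were those of the 240 min livers.

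Pim3, a close relative of Pim1 that has been studied in liver and pancreatic cancers, was the 1 member called higher in exonic reads. In RefSeq (GRCm38.p6) its start lies on the plus strand of chromosome 15, and the authors' table puts the gene at chr15:88692624-88696156 in build mm9, with 2419 exonic and 1114 intronic bases. Pim3 had 19.9 and 17.1 CPM of exonic reads in Hypox livers, 17.3 and 23.2 CPM at 30 min, 44.2 and 43.5 CPM at 90 min and 15.9 and 22.1 CPM at 240 min, the deeper library given first here and below. The 90 min libraries lay far above the rest and differed little from each other, and the libraries of the other 3 groups overlapped. At 90 min against Hypox the log2 change was 1.25 ± 0.18 (limma's standard error, as for every log2 change below), a 2.37-fold rise with an adjusted p of 0.0134 by limma. Pim3 was the only 1 of the 6 members to pass at an adjusted p under 0.05 at 90 min, where 0.843% of the 13170 genes tested passed in either direction. At 240 min Pim3 stood 2.33-fold below its 90 min level (log2 change -1.22 ± 0.18, adjusted p 0.00632 by limma). Against Hypox its level at 240 min differed by 0.02 ± 0.18 on the log2 scale, with a 95% interval of -0.38 to 0.42 (adjusted p 0.948 by limma).

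These calls rest on few libraries. Without either of the 2 Hypox or either of the 2 90 min libraries, the log2 change of Pim3 at 90 min was 1.14 to 1.36 and its limma adjusted p 0.0884 to 0.136, so the call was lost in each of the 4 cases. The fall at 240 min against 90 min was also lost, narrowly, when 1 of the 2 90 min libraries was left out, at -1.21 and a limma adjusted p of 0.0536 with the shallower kept and at -1.23 and 0.0543 with the deeper kept. The authors' deposited table gives a 2.40-fold rise of Pim3 at 90 min with an adjusted p of 7.69e-12; by that adjusted p, 2.17% of 17819 genes passed at 90 min.

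Pim1, the kinase gene first found as a site of retroviral insertion in mouse lymphomas, was the 1 member called lower than in Hypox livers. It lies at chr17:29627990-29632404 (mm9), with 2662 intronic bases. Pim1 had 7.87 and 9.93 CPM of exonic reads in Hypox livers, 4.12 and 8.80 CPM at 30 min, 16.9 and 10.8 CPM at 90 min and 3.53 and 2.54 CPM at 240 min. The pools of a group differed more than for Pim3: the higher library held 2.14 times the lower at 30 min. Both 240 min libraries lay below all others, and both 90 min libraries lay above all others. At 240 min against Hypox, Pim1 fell 2.89-fold (log2 change -1.53 ± 0.33, adjusted p 0.0162 by limma). It was the only 1 of the 6 members called in that comparison, where 11.3% of 13170 genes were called. At 240 min against 90 min it fell 4.41-fold (log2 change -2.14 ± 0.33, adjusted p 0.00744 by limma). Pim1 and Pim3 were the 2 of 6 members called between these times, where 5.26% of genes were called. The value at 90 min against Hypox, 0.61 ± 0.33 with an adjusted p of 0.611 by limma, did not pass, although the groups did not overlap; 41.4% of all genes tested had groups that did not overlap in this comparison. The 95% interval of that log2 change ran from -0.12 to 1.33. Whether Pim1 and Pim3 differed in their changes was not tested.

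Without the shallower Hypox library, Pim1 at 240 min against Hypox had a log2 change of -1.36 and an adjusted p of 0.109, and without the shallower 240 min library -1.30 and 0.0914, both by limma. Against 90 min its adjusted p by limma was 0.0704 without the deeper 90 min library (log2 change -1.82) and 0.0538 without the shallower 240 min library (log2 change -1.91). The authors' deposited table gives Pim1 a ratio of 0.347 at 240 min with an adjusted p of 4.28e-08, and 7.21% of 17876 genes passed there.

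Markers of other cell types are given beside Pim1. Of the 10 genes of the neutrophil list 9 were in the table and none of these was at 0 in all libraries. Their exonic reads summed to 9.94 and 11.3 CPM in Hypox livers, 6.03 and 8.75 CPM at 30 min, 17.6 and 12.4 CPM at 90 min and 7.02 and 7.00 CPM at 240 min. The rank of the 2 pools within a group was the same for this sum and for Pim1 in all 4 groups, although at 240 min the 2 sums were nearly equal. Only 4 of the 9 had enough reads to be tested, and Ngp, Camp and Ltf, which encode granule proteins, were at 0.0629 CPM or less in every library. The median log2 change of the 4 was -1 at 30 min, 0.71 at 90 min and -0.78 at 240 min against Hypox, and -1.56 at 240 min against 90 min, where Csf3r (the receptor of granulocyte colony-stimulating factor) and S100a8 (a subunit of calprotectin) were called lower. In this last comparison 5.26% of all genes tested were called in either direction. None of the 4 was called at 240 min against Hypox. Cxcr2, a chemokine receptor and the 1 tested marker with little difference between groups, had 4.08 to 5.55 CPM in all libraries (log2 change -0.22 at 240 min and 0.05 at 90 min against Hypox). The Kupffer cell and macrophage list summed to 54.7 to 72.9 CPM at 240 min against 76.7 to 97.9 CPM in Hypox livers, and none of its 9 tested markers was called in exonic reads. The 8 sinusoidal endothelial markers summed to 136 and 147 CPM at 240 min, against 192 and 189 CPM in Hypox livers, and 2 of them were called lower by limma, the scavenger receptor gene Stab2 (-0.64 ± 0.12, adjusted p 0.0104) and the VEGF receptor gene Kdr (-0.40 ± 0.10, 0.0334). Of all genes tested, 5.54% were called lower at 240 min against Hypox. The 10 hepatocyte markers summed to 26400 and 25300 CPM at 240 min, against 31800 and 32700 CPM in Hypox livers and at least 30600 CPM in every other library. Alb (albumin) made up most of this sum. It had 14200 and 13600 CPM at 240 min, against 19600 and 20100 CPM in Hypox livers, and was not called (-0.52, adjusted p 0.24 by limma). The median log2 change of the 10 markers was -0.10, and 1 of them, Tat (tyrosine aminotransferase), was called lower (-1.11 ± 0.23, adjusted p 0.0138 by limma). The part of these cells in the Pim1 result was not tested. Beside Pim3 at 90 min, the medians of the 8 cell type lists lay between -0.26 and 0.71 and none of their tested markers was called for exonic reads, which does not show that the cells were the same.

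The genes with the profile nearest to each of these members were found by the root mean square difference of centred log2 exonic levels over the 8 libraries, in a set of 9245 genes averaging 2 CPM or more. For Pim1 they were Il1b at 0.35, Map3k8 at 0.36 and Csf3r at 0.38, where the median gene stood at 0.87. Il1b encodes the cytokine interleukin 1 beta, and Map3k8 a kinase of inflammatory signalling. Il1b had 1.41 and 1.14 CPM at 240 min, against 5.37 and 5.47 CPM in Hypox livers. Csf3r, already counted in the neutrophil list above, had 1.82 and 1.73 CPM at 240 min, against 6.04 and 3.87 CPM at 90 min. For Pim3 the nearest were D11Wsu47e at 0.23, Tnip2 at 0.24 and Hivep1 at 0.24, where the median gene stood at 0.58. Tnip2 encodes a protein that binds the NF-kB inhibitor A20, and Hivep1 a large zinc finger protein. Hivep1 was called at 90 min as Pim3 was, with 38.8 and 41.2 CPM, against 16.6 and 19.3 CPM in Hypox livers. D11Wsu47e and Tnip2 were not called at 90 min against Hypox. The nearest genes were picked by their values in these same 8 libraries. Changes like those of Pim1 and Pim3 therefore follow from the choice and are not a separate result.

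**Figure D2:**
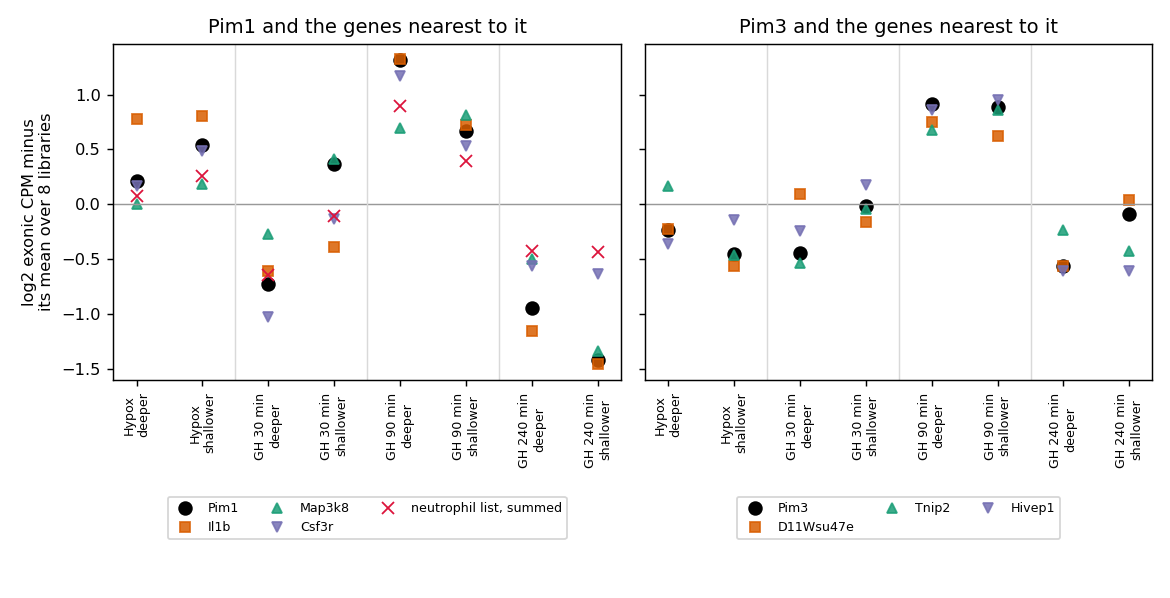
Log2 exonic CPM minus its mean over the 8 libraries (y axis) in each library (x axis) for Pim1 and its 3 nearest genes with the summed neutrophil list (left) and for Pim3 and its 3 nearest genes (right). On the left the deeper 90 min library, with 16.9 CPM of Pim1 and 17.6 CPM of neutrophil markers, is highest for Pim1 and for the marker sum.

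The upstream sequence of the called members is shown because both are regarded as STAT targets. The 250 bases before the RefSeq start, in lower case with any CCAAT or ATTGG in capitals, read 5′ to 3′ on the plus strand of GRCm38.p6, were at chr17:29490535-29490784 for Pim1 and at chr15:88861944-88862193 for Pim3.
Pim1: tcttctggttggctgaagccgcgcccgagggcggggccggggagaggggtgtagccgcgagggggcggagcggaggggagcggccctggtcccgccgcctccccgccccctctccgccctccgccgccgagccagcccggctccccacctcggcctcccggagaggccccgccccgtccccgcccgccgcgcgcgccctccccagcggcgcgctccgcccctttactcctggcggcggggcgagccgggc
Pim3: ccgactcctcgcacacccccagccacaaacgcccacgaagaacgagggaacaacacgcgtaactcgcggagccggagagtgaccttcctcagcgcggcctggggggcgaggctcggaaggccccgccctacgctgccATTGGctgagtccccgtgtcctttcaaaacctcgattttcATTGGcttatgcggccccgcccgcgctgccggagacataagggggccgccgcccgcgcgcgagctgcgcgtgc
The STAT letters TTCNNNGAA, which read the same on both strands, were searched in the windows of the 5 members found in the RefSeq table. They were in 0 of 8 windows of these members, in none of the Cish window, and in 7.02% of the 32851 windows of all genes. That says only that these letters are not in these windows. The Pim1 window shown had 82.4% G and C and the Pim3 window 68.0%, against a median of 52.4% over all windows. Pim1 has a further RefSeq window, at chr17:29492835-29493084, with 48.0% G and C. The CCAAT letters on either strand, chosen after the sequences were read, were in 33.8% of all windows, at 2 places in the Pim3 window and not in the Pim1 window shown.

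Pim2, a kinase best known from lymphoid cells, was the lowest member and had 22 to 66 exonic reads a library. It lies at chrX:7455432-7460558 (mm9). Pim2 had 1.90 and 1.57 CPM in Hypox livers, 1.55 and 1.17 CPM at 30 min, 1.84 and 2.03 CPM at 90 min and 1.11 and 1.45 CPM at 240 min. Hypox and 90 min livers overlapped, and both 30 min and both 240 min libraries lay below both Hypox libraries. At 90 min its log2 change of 0.15 ± 0.25 had a 95% interval of -0.40 to 0.70, and at 240 min -0.41 ± 0.25 had one of -0.96 to 0.14, with adjusted p of 0.923 and 0.315 by limma. A change of Pim2 as large as that of Pim3 at 90 min lies outside its 95% interval at that time.

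Mcl1, whose protein is turned over within hours and is needed for hepatocyte survival in mice, was measured most precisely, with 819 to 1771 exonic reads a library. It lies at chr3:95462643-95467101 (mm9), with 3487 exonic and 972 intronic bases. Mcl1 had 50.9 and 55.3 CPM in Hypox livers, 41.7 and 44.5 CPM at 30 min, 50.3 and 54.6 CPM at 90 min and 44.1 and 37.2 CPM at 240 min. The 30 min and 240 min libraries lay below all Hypox and 90 min libraries. The log2 change against Hypox was -0.30 ± 0.12 at 30 min (adjusted p 0.637 by limma), -0.02 ± 0.12 at 90 min (0.989) and -0.39 ± 0.12 at 240 min (0.0651), none of which passed. Its 95% interval at 90 min was -0.29 to 0.25. Without the deeper 240 min library the value at 240 min was -0.50 with an adjusted p of 0.0466 by limma.

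Bcl2l1 encodes BCL-XL and, by a different splice, the shorter BCL-XS, and its exonic reads do not tell these apart. It lies at chr2:152584468-152657464 (mm9), with 3195 exonic and 69802 intronic bases in the authors' model. Bcl2l1 had 6.12 and 8.08 CPM in Hypox livers, 8.61 and 7.79 CPM at 30 min, 6.01 and 4.98 CPM at 90 min and 5.09 and 4.86 CPM at 240 min. The 90 min and 240 min libraries lay below all Hypox and 30 min libraries. No comparison passed: the log2 change was -0.49 ± 0.17 at 240 min against Hypox (adjusted p 0.0945 by limma) and -0.57 ± 0.17 at 90 min against 30 min (0.339). BCL-XL also keeps red cell precursors alive, and the 8 red blood cell and erythroid markers summed to 106 and 59.6 CPM at 240 min, against 87.9 and 70.9 CPM in Hypox livers. None of the 6 tested erythroid markers was called in exonic reads at any time. Hba-a1 and Hba-a2 had equal values in all 8 libraries, so they do not count as separate markers. Intronic Alas2 reads were called lower against Hypox at 90 min (-1.54 ± 0.21, adjusted p 0.00176 by limma) and at 240 min (-0.80 ± 0.21, 0.0329). There 4.3% and 6.27% of all genes were called lower. The part of red cells in the Bcl2l1 values was not tested.

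Ccnd1 encodes cyclin D1, which activates CDK4 and CDK6 at the start of the cell cycle and rises in hepatocytes after partial liver removal. It lies at chr7:152115836-152125830 (mm9). Ccnd1 had 6.01 and 6.29 CPM in Hypox livers, 9.05 and 4.66 CPM at 30 min, 5.39 and 6.09 CPM at 90 min and 8.28 and 10.4 CPM at 240 min. The 240 min libraries lay above all Hypox and 90 min libraries, and the deeper 30 min library lay between the 240 min values. The log2 change at 240 min was 0.59 ± 0.26 against Hypox (adjusted p 0.169 by limma) and 0.69 ± 0.26 against 90 min (0.156), so neither passed. In the same libraries, 3 of 6 cholangiocyte markers were called higher at 240 min against Hypox, as were 5.72% of all genes tested. Their list summed to 18.9 and 29.6 CPM at 240 min, against 11.1 and 14.8 CPM in Hypox livers, and its part in the Ccnd1 values was not tested.

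At 30 min none of the 6 members was called for exonic reads by limma, where 0.0683% of genes were called. Mcl1 was the 1 member with an unadjusted p under 0.05, against 7.02% of all genes, and limma-voom also called 0 members. Cish, a feedback inhibitor and direct STAT5 target, had by then 4.05 and 10.3 CPM, against 0.546 and 1.38 CPM in Hypox livers, although its exonic change of 2.74 ± 0.42 did not pass (adjusted p 0.0635 by limma). The authors' deposited table gives exonic Cish a 7.44-fold rise at 30 min with an adjusted p of 5.49e-07. The intronic reads of Cish did pass, with a log2 change of 3.39 ± 0.51 at 30 min (adjusted p 0.00545 by limma), and those of Socs2, another feedback inhibitor, with 3.41 ± 0.43 (0.00213). At 90 min exonic Cish was 15.7-fold and Socs2 13.5-fold above Hypox (adjusted p 0.00311 and 0.0155 by limma), beside 2.37-fold for Pim3. Between 30 and 90 min, 0 of 6 members and 0% of all genes were called by limma, while 4 members had an unadjusted p under 0.05, as had 8.81% of genes. Pim3 was the nearest of these, with 1.13 ± 0.18 and an adjusted p of 0.129 by limma; the median over the 6 members was 0.38 and over all genes 0. Limma-voom also called 0 members there. Without the shallower 30 min library, the log2 change of Pim3 was larger, at 1.34. That library, with 23.2 CPM of Pim3, lay nearer to the 90 min values than the deeper, with 17.3 CPM.

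**Figure D3:**
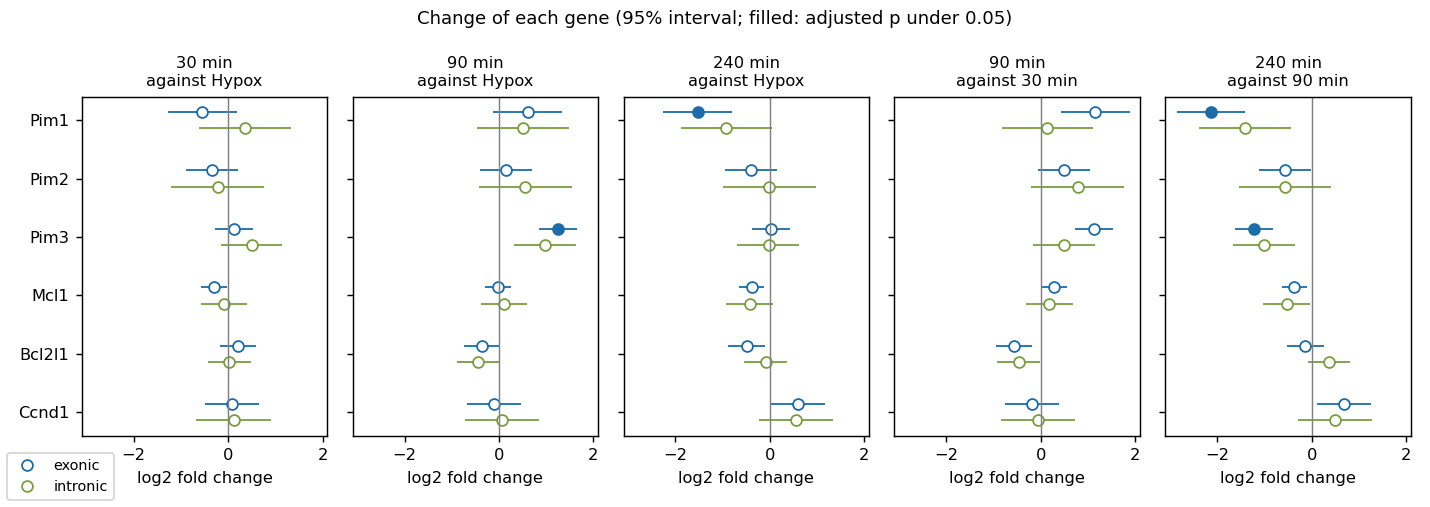
Log2 fold change (x axes) of each gene (rows) in the 5 comparisons (panels), for exonic reads in blue and intronic reads in green, with 95% intervals and filled symbols where the limma adjusted p is under 0.05. The filled symbols are exonic Pim3 at 90 min (1.25), exonic Pim1 at 240 min (-1.53), and exonic Pim1 (-2.14) and Pim3 (-1.22) at 240 min against 90 min.

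Intronic reads were fewer, from 3 for Pim2 in 1 library to 154 for Pim3 in another, with Bcl2l1 at 226 to 766 because its introns are long. None of the 6 members was called for intronic reads in any of the 5 comparisons by limma, where 2.42%, 7.57% and 11.2% of 12256 genes were called at 30, 90 and 240 min against Hypox, 0.0734% at 90 against 30 min and 11.7% at 240 against 90 min. The number of members with an unadjusted p under 0.05 was 0, 1 and 0 at 30, 90 and 240 min, 1 at 90 against 30 min and 3 at 240 against 90 min, where 13.6%, 20.4%, 27.4%, 10.3% and 25.8% of all genes had one, in that order. Limma-voom called Pim3 at 90 min against Hypox (1.06, adjusted p 0.0444) and at 240 min against 90 min (-1.12, adjusted p 0.039).

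Intronic Pim3 reads were at 1.68 and 2.43 CPM in Hypox livers, 3.13 and 2.66 CPM at 30 min, 4.70 and 3.52 CPM at 90 min and 1.47 and 2.63 CPM at 240 min. Both 30 min libraries lay above both Hypox libraries, and both 90 min libraries above those at 30 min. The step from 30 to 90 min was 0.48 ± 0.30 on the log2 scale and did not pass (adjusted p 0.641 by limma). The log2 change was 0.50 ± 0.30 at 30 min (adjusted p 0.555 by limma), 0.98 ± 0.30 at 90 min (0.0773) and -1.01 ± 0.30 at 240 min against 90 min (0.0512). The authors' deposited table gives intronic Pim3 a 2.05-fold rise at 90 min with an adjusted p of 0.00948, where 7.58% of 16593 genes passed. Intronic Pim1 was at 1.03 and 3.02 CPM in Hypox livers, 2.11 and 2.55 CPM at 30 min, 3.45 and 1.91 CPM at 90 min and 1.10 and 0.725 CPM at 240 min. The Hypox pools differed enough to span all 30 min values. At 240 min against 90 min its change was -1.42 ± 0.44 (adjusted p 0.0614 by limma).

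Intronic Bcl2l1 was at 16.9 and 13.5 CPM at 90 min, against 21.4 and 19.8 CPM in Hypox livers, a log2 change of -0.44 ± 0.21 that did not pass (adjusted p 0.254 by limma). Intronic Mcl1 stayed between 2.13 and 4.12 CPM, intronic Ccnd1 between 0.472 and 0.952 CPM and intronic Pim2 between 0.17 and 0.458 CPM. A test of the exonic change minus the intronic change, added after the data were seen, called 0 of 6 members in any comparison by limma, where 0.0783%, 0.522% and 0.0783% of 11501 genes were called at 30, 90 and 240 min, 0% at 90 against 30 min and 4.26% at 240 against 90 min. The largest such difference was that of Pim1 at 90 against 30 min, 1.01 ± 0.40 (adjusted p 0.576 by limma).

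**Figure D4:**
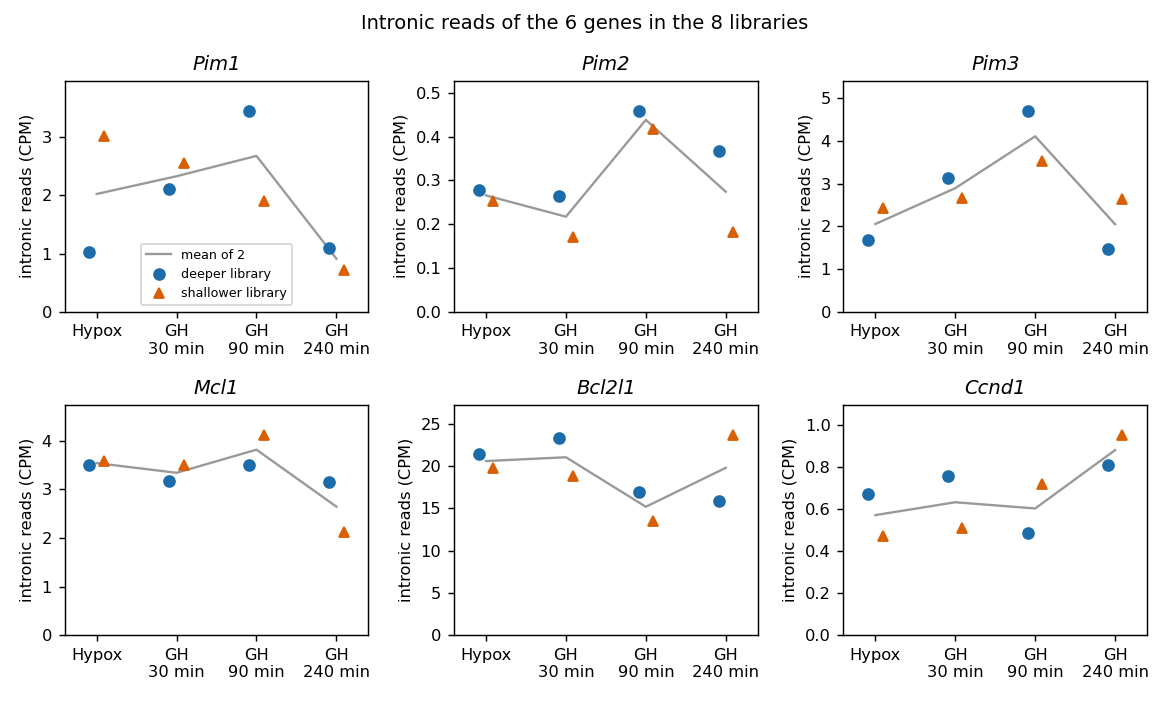
Intronic reads of each gene in CPM (y axes, linear, from 0) in the 4 groups (x axes), with a circle for the deeper and a triangle for the shallower library and a line through the mean of 2. Intronic Pim3 reached 4.70 and 3.52 CPM at 90 min, while the 2 Hypox values of Pim1, 1.03 and 3.02 CPM, lay far apart.

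Of the anti-apoptotic BCL2 family, 4 of 8 genes could be tested in exonic reads and 5 of 8 in intronic reads (Mcl1 and Bcl2l1 among them), and 0 passed in any of the 5 comparisons of either kind by limma. Their median exonic log2 change at 240 min was -0.33, beside -0.03 over all genes. All 3 effectors of the BAX, BAK and BOK kind were tested and none passed. Of the BH3-only and BNIP3 genes, whose proteins oppose or bind BCL2 relatives, 9 were tested. Bbc3, which encodes PUMA, fell at 240 min to 0.557 and 0.227 CPM, against 1.70 and 1.57 CPM in Hypox livers (log2 change -1.90 ± 0.43, adjusted p 0.0197 by limma), and it was the only 1 of the 9 to pass in exonic reads. At 240 min against Hypox, 11.3% of all genes tested passed in either direction and 5.54% were lower, so 1 of 9 is near the share over all genes.

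Intronic reads of this list fell in more cases. At 90 min 3 of 8 tested genes were lower and none higher, where 4.3% of genes were lower by limma. These were Bcl2l11 (BIM) at -0.94 ± 0.23, Bmf at -1.71 ± 0.44 and Bbc3 at -1.91 ± 0.52, with adjusted p of 0.0312, 0.0387 and 0.0474. Bmf and Bbc3 rest on few reads, with 0.153 and 0.179 CPM for Bmf and 0.183 and 0.119 CPM for Bbc3 at 90 min. The Hypox pools of Bbc3 lay far apart, at 0.447 and 1.51 CPM. At 240 min 3 of 8 were lower, where 6.27% of genes were lower: Bcl2l11 at -0.92 ± 0.23, Bmf at -1.62 ± 0.44 and Bnip3l, which encodes a receptor for the removal of mitochondria, at -0.86 ± 0.20 (adjusted p 0.0291, 0.0394 and 0.0223 by limma). Bmf had at most 0.227 CPM of intronic reads in the 240 min libraries, against 0.698 and 0.85 CPM in Hypox livers.

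Of 12 caspases, inhibitors of apoptosis and regulators of both, 1 rose and 2 fell in exonic reads at 240 min, where 5.72% of all genes rose and 5.54% fell. Casp9, the initiator caspase of the mitochondrial route, fell to 3.45 and 4 CPM, against 7.16 and 9.08 CPM in Hypox livers (-1.10 ± 0.17, adjusted p 0.0046 by limma). Birc3, an inhibitor of apoptosis induced by NF-kB, fell by 1.02 ± 0.18 (adjusted p 0.00832 by limma). Casp8, the initiator caspase of death receptors, rose by 0.76 ± 0.17 (0.0218). Its intronic reads rose earlier, to 23.7 and 31.2 CPM at 30 min and 28.3 and 25.6 CPM at 90 min, against 13 and 13 CPM in Hypox livers (log2 changes 1.05 ± 0.16 and 1.04 ± 0.16, adjusted p 0.00692 and 0.00351 by limma). At 240 min they were at 12.6 and 12.1 CPM.

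**Figure D5:**
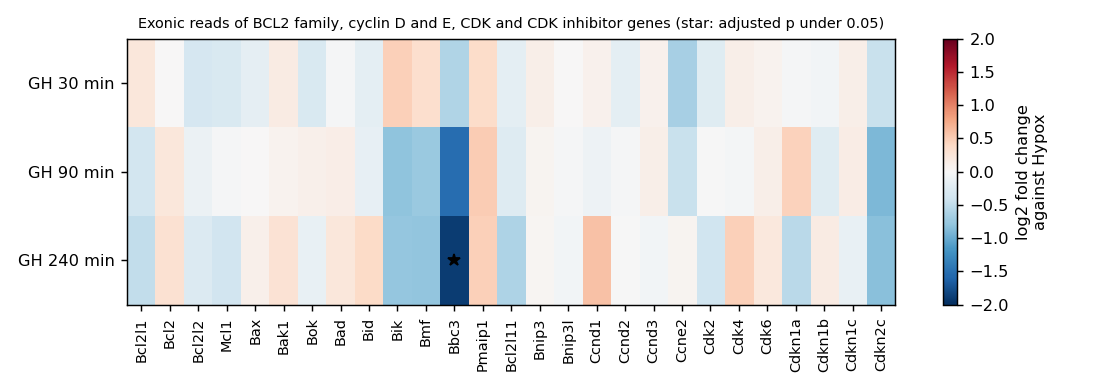
Log2 fold change of exonic reads against Hypox (colour, red higher, blue lower) at 3 times (rows) for tested genes of the BCL2 family, the D and E cyclins, their kinases and their inhibitors (columns), with a star where the limma adjusted p is under 0.05. The only star is that of Bbc3 at 240 min (-1.90).

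Of the G1 cyclins and kinases, the partners of Ccnd1, 0 of 7 tested passed in exonic reads in any comparison by limma. Intronic Cdk6 reads rose at 90 min to 62.6 and 53.5 CPM, against 21.7 and 34.1 CPM in Hypox livers (1.09 ± 0.25, adjusted p 0.0246 by limma), and were at 21.7 and 25.3 CPM at 240 min. Intronic Ccnd3 reads fell at 240 min to 10.8 and 12 CPM, against 21.4 and 21.7 CPM in Hypox livers (-0.92 ± 0.20, adjusted p 0.0159 by limma). Each was the 1 call among 7 tested genes, where 7.57% of all genes were called for intronic reads at 90 min and 11.2% at 240 min. Of the CDK inhibitors and RB and E2F genes, 0 of 10 tested passed in exonic reads. In intronic reads Rbl1 (the RB relative p107) was higher by 1.72 ± 0.30 and Cdkn1b (p27) by 0.72 ± 0.21 at 240 min against 90 min (adjusted p 0.00439 and 0.0461 by limma). These were 2 of 6 tested genes, where 11.7% of all genes were called in either direction. Against Hypox neither was called at 240 min, with log2 changes of 0.78 for Rbl1 and 0.45 for Cdkn1b (adjusted p 0.114 and 0.187 by limma). Of the S, G2 and M phase genes, 0 of 9 tested passed in exonic and 0 of 6 in intronic reads by limma. None of the 7 MCL1 turnover genes, which include the ubiquitin ligase genes Huwe1 and Fbxw7, passed in either read kind.

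Among 13 tested genes of proteins that PIM kinases phosphorylate, Myc rose at 30 min to 8.64 and 11.4 CPM and at 90 min to 11.2 and 7.38 CPM, against 0.632 and 1.32 CPM in Hypox livers. Its log2 changes were 3.30 ± 0.33 and 3.18 ± 0.33 (adjusted p 0.00488 and 0.00311 by limma), the 1 call of this list at each time. At 240 min 4 of the 13 fell and none rose. These were Map3k5, a stress kinase, at -0.67 ± 0.13, Nuak1, a relative of AMPK, at -1.14 ± 0.26, and the transcription factors Foxo1 at -0.61 ± 0.14 and Foxo3 at -0.52 ± 0.14, with adjusted p of 0.00966, 0.0209, 0.0222 and 0.0396 by limma. The median of the list was -0.16, beside -0.03 over all genes, and 5.54% of all genes were called lower.

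STAT3 and STAT5 reference genes were set beside the Pim genes because Pim1 is a known target of STAT3 as well. Of 7 GH and STAT5 reference targets 3 rose at 90 min, where 0.63% of all genes rose, and 5 rose and 2 fell at 240 min in exonic reads, against the 5.72% and 5.54% of all genes given above. Onecut1, a liver transcription factor, rose to 40.2 and 37.2 CPM at 240 min, against 3.82 and 3.83 CPM in Hypox livers (adjusted p 7.36e-05 by limma). Bcl6, a repressor known to be lowered by GH, fell by 2.76 ± 0.24 (adjusted p 0.000331 by limma). Of 12 STAT3 and acute phase targets, 2 fell in exonic reads at 240 min. Junb, a subunit of AP-1, fell to 10.8 and 10 CPM, against 40.3 and 45.7 CPM in Hypox livers, and Socs3, a feedback inhibitor that is also on the GH list, fell to 5.49 and 6.31 CPM, against 22.1 and 27.4 CPM in Hypox livers (adjusted p 0.000306 and 0.00228 by limma). In intronic reads 9 of 11 fell at 240 min against Hypox and 10 of 11 against 90 min (6.03% of all genes were lower in this last comparison by limma), Hp (haptoglobin) by 2.47 ± 0.33 and Fgb (fibrinogen beta) by 1.47 ± 0.22 against Hypox (adjusted p 0.00204 and 0.0039 by limma). Neither gene was called in exonic reads at 240 min against Hypox, where Hp had a log2 change of -0.39 ± 0.22 and Fgb one of 0.59 ± 0.24 (adjusted p 0.293 and 0.139 by limma). The STAT3 and acute phase list holds the near-identical genes Saa1 and Saa2, whose reads may be shared. At 240 min against Hypox the 6 members had a median exonic change of -0.40, with 4 of the 6 below and 1 above Hypox without overlap, in a comparison where 56% of all genes had groups that did not overlap.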

How the data were processed

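Total liver RNA was measured in 8 libraries. The authors deposited 1 table with, per the file headers, the mean FPKM of the 2 replicates of each group over the gene body and over introns, expression ratios against Hypox and adjusted p-values. Per the submitters' processing notes, TopHat2, featureCounts, edgeR and build mm9 were used; the sources used here do not give whether strand was used in counting, so overlapping genes may share reads. Whole reads per library were recovered by arithmetic, since each mean is a sum of 2 whole numbers divided by library total and gene length. Of genes with a gene body value 18359 of 18359 came out whole, and of those with an intronic value 17027 of 17098. A control took 1000 genes already solved, each at its solved length, so that 1000 of 1000 with the totals used was fixed beforehand. With each total moved by 1000 reads 0 of 1000 came out whole at those lengths, and other lengths were not tried. Solving the same arithmetic on simulated data recovered the reads, and the test was checked on simulated data.

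CPM values were scaled by median-of-ratios factors (from genes averaging 50 reads or more). Limma 3.58.1 in R 4.3.3 was run on log2(CPM + 0.1) with a trended variance and 1 term, the group, over all 8 libraries. Tested genes had 10 reads or more in 2 or more libraries, with Benjamini-Hochberg adjustment over 13170 (exonic) or 12256 (intronic) genes and a call at an adjusted p under 0.05; fold changes on this scale understate changes of low genes. The fit had 4 residual and 6.51 prior degrees of freedom for exonic reads, and the median standard error of a log2 change was 0.196. Replicate libraries differed beyond sampling noise (chi-square per degree of freedom 5.06 to 21.6). The named genes are the 6 members, up to 4 called genes with the smallest p of each list and comparison, the 3 nearest profiles of each called member, and Cish and Socs2. The members and lists were chosen with earlier results of these data known. Lists were described by counts and medians, without a test. Alternatives were another pseudocount (1), another filter, library totals, TMM scaling, limma-voom, 2 groups alone, each library left out, and the authors' adjusted p. Promoter windows came from RefSeq (GRCm38.p6) and coordinates of genes from the table (mm9).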

Additional observations from a re-analysis of the deposited data

Results flagged for a closer look

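The effects of 2 members differed between times when the difference itself was tested with limma. For Pim1 the change at 240 min was lower than that at 90 min by a log2 change of -2.14 ± 0.33 (adjusted p 0.00744), with -1.53 at 240 min and 0.61 at 90 min against the same Hypox libraries. For Pim3 it was lower by -1.22 ± 0.18 (adjusted p 0.00632), with 0.02 at 240 min and 1.25 at 90 min. In both cases both 240 min libraries lay below both 90 min libraries. The share of all genes without overlap is not given for this comparison, and at 240 min against Hypox it was 56%. The changes against Hypox share the Hypox group, which cancels in the difference. The tests are therefore the same as those of 240 min against 90 min given above for Pim1 and Pim3.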

How the results depend on the processing

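Of 598 values of the 6 genes under the alternatives, 544 kept their direction and their side of the threshold; for the others named here the cause was not tested. The counts of genes called changed as follows. For exonic reads at 90 against 30 min, library totals as the only scaling called 1 (Pim3, log2 change 1.20, adjusted p 0.0399) in place of 0. For intronic reads at 240 against 90 min, pseudocount 1 called 1 (Pim3, -0.76, 0.0472), library totals 1 (Pim1, -1.41, 0.0471), TMM 1 (Pim3, -1.04, 0.0412), limma-voom 1 (Pim3, -1.12, 0.039) and the 2 groups alone 2 (Pim1, -1.44, 0.0212, and Pim3, -1.03, 0.0467), in place of 0. For intronic reads at 90 min against Hypox, limma-voom called 1 (Pim3, 1.06, 0.0444), and the authors' deposited adjusted p called 1, again Pim3.

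Values that changed sign against the values in the report were all small. They were, with library totals, exonic Mcl1 at 90 min (0.01), intronic Bcl2l1 at 30 min (-0.10), intronic Pim2 and Pim3 at 240 min (0.04 and 0.03) and intronic Ccnd1 at 90 against 30 min (0.09); with pseudocount 1, intronic Pim2 at 240 min (0.01); and with limma-voom, intronic Pim2 at 240 min (0.04) and intronic Ccnd1 at 90 min (-0.02).

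With 1 library of the 2 groups compared left out at a time, a lone library was assumed to vary like the other groups. The number called for exonic reads was then 0 at 90 min, 0 to 2 at 240 min, 0 to 1 at 90 against 30 min and 0 to 2 at 240 against 90 min; for intronic reads it was 0 to 1 at 240 min and 0 to 1 at 240 against 90 min. Intronic Pim1 at 240 min was called without the deeper Hypox library (-1.65, adjusted p 0.0327). Changes whose sign depended on 1 library ran, for exonic reads, from -0.09 to 0.33 (Pim3, 30 min), -0.39 to 0.55 (Ccnd1, 30 min), -0.08 to 0.04 (Mcl1, 90 min), -0.21 to 0.27 (Pim3, 240 min) and -0.65 to 0.29 (Ccnd1, 90 against 30 min). For intronic reads they ran at 30 min from -0.37 to 1.09 (Pim1), -0.13 to 0.17 (Bcl2l1) and -0.12 to 0.37 (Ccnd1), at 90 min from -0.23 to 1.23 (Pim1), -0.01 to 0.22 (Mcl1) and -0.17 to 0.30 (Ccnd1), at 240 min from -0.37 to 0.36 (Pim2), -0.43 to 0.37 (Pim3) and -0.37 to 0.20 (Bcl2l1), and at 90 against 30 min from -0.26 to 0.55 (Pim1) and -0.30 to 0.19 (Ccnd1).

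No paired analysis was possible because the deposited columns carry no pool number and the recovered reads do not show which library was pool 1. With pseudocount 1, 2 of the 3 nearest genes were the same for Pim1 and 2 of 3 for Pim3. Depth limits Pim2, with 22 to 66 exonic reads a library, and the intronic values of all members but Bcl2l1, and 2 libraries a group limit every test.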
